A study of Arabidopsis thaliana with 6 samples.

Results

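Rosette leaves of the Arabidopsis thaliana mutant flu were compared with those of its wild type, Landsberg erecta (Ler), after 2 h of light that followed 8 h of darkness. Each genotype was represented by 1 Affymetrix ATH1 array. The members were all probe sets, apart from the array's own controls, whose highest signal over the 6 arrays of the series reached 185, and 13062 of 22810 probe sets met this. Plants of both genotypes were 3 weeks old, not yet bolting, and had grown on soil in continuous light before the dark period. The mutant carried the allele flu1-1 in the Landsberg erecta background. Leaves of 5 to 6 plants made up a sample, and RNA of 2 separate experiments was pooled before labelling. The remaining 4 arrays held the same genotypes after 30 min and 60 min of light and are used here only beside the 2 h values.

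FLU is a plastid protein that restrains the first committed step of tetrapyrrole synthesis in darkness by acting on glutamyl-tRNA reductase. Without it, leaves in the dark accumulate protochlorophyllide, the free pigment that precedes chlorophyll. When light returns, this pigment passes energy to oxygen, and singlet oxygen forms inside the plastids. Singlet oxygen can damage thylakoid lipids and proteins and is also known to start a signal from the plastid to nuclear genes. The flu mutant is used to release it at a chosen moment.

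With 1 array of pooled RNA a genotype there was no spread between replicates, so no difference below has a test, an SD or a p-value, and 2 arrays limit its precision. A difference is the log2 of signal + 50 in flu minus the same in Ler, so that a difference of 1 is a factor of 2 on that scale and dim probe sets are held closer together than their signals. Between the Ler arrays of 60 min and 2 h, which differ in time but not in genotype, such differences had an SD of 0.34 over the probe sets, with 52 (0.398%) at least 2-fold higher and 131 (1%) at least 2-fold lower at 2 h. At 4-fold these were 2 (0.0153%) and 5 (0.0383%). The same figure between flu and Ler at 2 h was an SD of 0.92. The controls added at hybridisation had a geometric mean signal of 1653 in Ler and 1485 in flu, and the 3' to 5' signal ratio of the actin control was 2.03 in Ler and 1.68 in flu. The part of these array values in the results was not tested.

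The tissue label was checked against cell type markers. The 3 named leaf mesophyll genes of 14 looked for, RCA, SBPASE and PRK, had a summed signal of 51457 in Ler and 34875 in flu. FDH, looked for as an epidermis gene and found by its symbol alone, read 7152 in Ler and 7135 in flu. Which gene of that symbol its probe set reads was not checked, so it is not taken as an epidermis marker. The root genes AGL42, EXPA7 and EXPA18 summed to 271 and 263, and the flower gene AMS read 20.8 and 18.3, all low values. Of genes of the guard cell lineage, SPCH and MUTE summed to 220.3 in Ler and 72.2 in flu, with MUTE under 185 on every array. FMA, of the same lineage but not in that sum, was brighter, at 329 in Ler and 228 in flu, within 2-fold. The trichome genes TRY and GIS summed to 708 in Ler and 341 in flu. No marker of phloem, xylem, seed or senescence among those looked for had a named probe set. Fewer cells of a type and less RNA per cell cannot be told apart in whole leaves. FLU itself had no named probe set, so the mutation was not checked on these arrays.

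After 2 h of light the flu leaves differed from the wild type mainly through genes of higher signal. Of the 13062 probe sets, 1321 (10.1%) were at least 2-fold higher in flu and 720 (5.51%) at least 2-fold lower. The 2 directions parted further at larger factors, with 585 (4.48%) at least 4-fold higher and 43 (0.329%) at least 4-fold lower. At least 8-fold differences numbered 222 and 3, and at 16-fold 81 probe sets were higher and 0 lower. The bulk of probe sets lay the other way, with a median difference of -0.20, and after centring on this median 1620 were at least 2-fold higher and 397 lower. The higher share of all 2-fold differences was thus 64.7% as deposited and 80.3% after centring. Together the 1321 higher probe sets held 3.74% of the summed signal of the Ler array and 17.9% of that of the flu array. The 720 lower ones held 6.59% in Ler and 2.56% in flu.

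**Figure D1:**
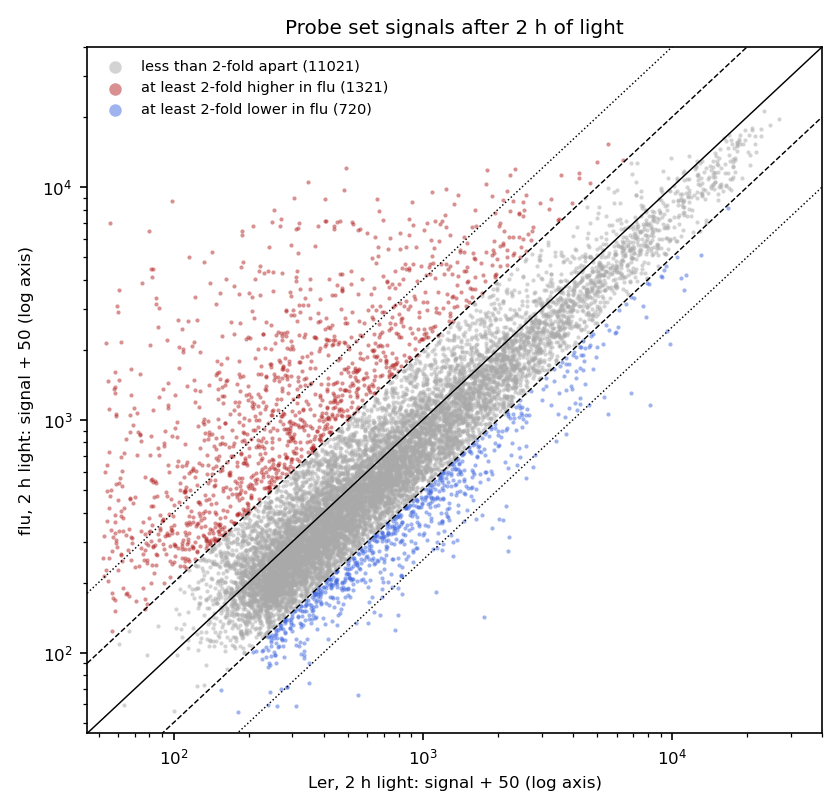
Signal + 50 of each of the 13062 probe sets after 2 h of light, with Ler on the horizontal and flu on the vertical axis, both logarithmic. Solid, dashed and dotted lines mark equality, 2-fold and 4-fold, and the 1321 red points of higher signal in flu reach farther from the line of equality than the 720 blue points of lower signal.

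A large share of the higher probe sets was dim in the wild type. Of the 1321, 593 (44.9%) had a signal under 185 in Ler at 2 h, while 256 (35.6%) of the 720 lower ones were under 185 in flu. Among the 1677 probe sets under 185 in Ler at 2 h, 35.4% were at least 2-fold higher in flu. Of the 557 brightest, at 5000 or more in Ler, 2 were at least 2-fold higher and 30 lower, and their median difference was -0.37. Part of this is set by the choice of members, since a probe set that reached 185 on the flu array of 2 h alone had to be higher there. There were 256 of that kind, 181 of them at least 2-fold higher. In all 757 probe sets reached 185 on flu arrays only, at any time, with 433 at least 2-fold higher and 2 lower. Among the 11708 probe sets that reached 185 in both genotypes, 7.58% were at least 2-fold higher and 5.49% lower.

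**Figure D2:**
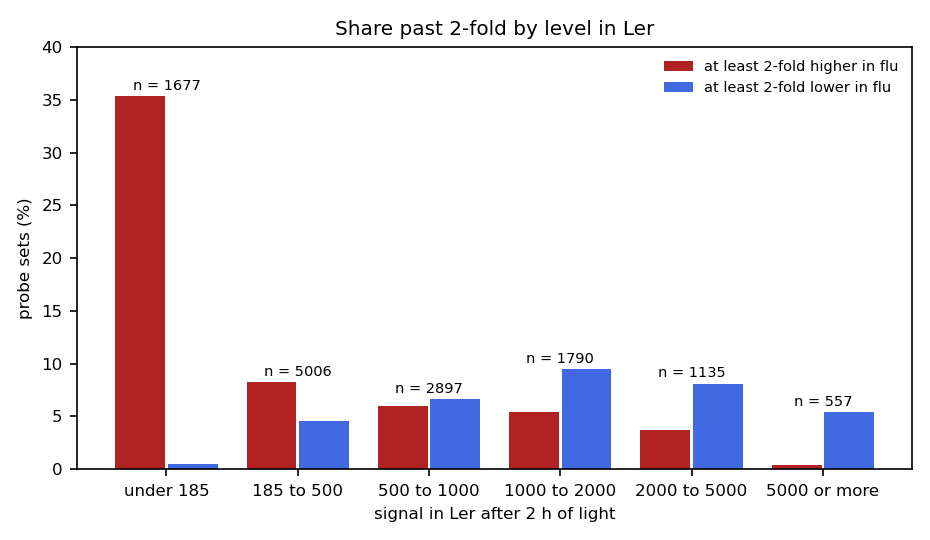
Percentage of probe sets at least 2-fold higher (red) or lower (blue) in flu after 2 h of light, grouped by their signal in Ler at 2 h, with the number of probe sets above each pair of bars. The higher share is 35.4% under 185 and 0.359% at 5000 or more, and the lower share is highest between 1000 and 2000, at 9.50%.

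Most of the larger differences were smaller at the earlier times. Of the 585 probe sets at least 4-fold higher at 2 h, 230 were at least 4-fold higher at 60 min and 100 at 30 min, and 381 were less than 2-fold apart at 30 min. Over all probe sets, 292 (2.24%) were at least 4-fold higher at 60 min and 129 (0.988%) at 30 min, and 5 (0.0383%) and 1 (0.00766%) at least 4-fold lower. Of the 43 at least 4-fold lower, 2 were at least 4-fold lower at 60 min and 24 were less than 2-fold apart. Set against every Ler array rather than that of 2 h alone, 388 of the 585 and 8 of the 43 were past 4-fold. For many of the 43, being past 4-fold thus depended on the level of the Ler array at 2 h. Their median difference of -2.17 lay close to the 4-fold limit, so a small change of level was enough to move many inside it.

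Names came from the platform annotation, in which 6927 of the members had a single gene, 5883 of these known there only by a locus number. Of the 6927, 630 (9.09%) were at least 2-fold higher and 392 (5.66%) lower, with 263 (3.8%) and 20 (0.289%) past 4-fold. The gene lists below hold 1 probe set a gene, and of all 6865 genes so counted 9.15% were at least 2-fold higher and 5.71% lower, with a median of -0.20 and 65.8% below 0. Of these genes 420 passed the filter on flu arrays only, with 232 at least 2-fold higher, and 343 on Ler arrays only, with 41 at least 2-fold lower. Among the 6445 genes that reached 185 on a Ler array, 6.14% were at least 2-fold higher and 6.05% lower, with a median of -0.23. Where a list holds genes that passed on flu arrays only, its count and median rest in part on that choice, and for the lists where such genes make up much of the count the genes that reached 185 in Ler are also counted alone. Higher list members of this kind that are described further on without that count are HEMA2, GID1B, CCR2, 4CL8, XTH18, B120, ATA27, BGLU46, CYP71B22, SBT3.3 and TET9. In the same way, the lower list members ATL5, EXPB1 and SPCH passed on Ler arrays only, and the lower counts of their lists rest in part on that. A list median between -0.20 and 0 lies above that of all genes and turns positive after centring. Where a locus number is given a role, that role is general knowledge and not part of the annotation used. 7 of the 10 largest differences belonged to probe sets with no single named gene, which are not described further.

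Chaperones were among the genes with the largest differences. Small heat shock proteins hold unfolding proteins without using ATP, and 4 of their 7 genes were at least 4-fold higher in flu, with a list median of 4.17. All 4 were under 185 on every Ler array and passed the filter on flu arrays only, as did 1 more member, and of the 2 genes that reached 185 in Ler 0 were past 2-fold. AT2G29500, a cytosolic member and the named gene with the largest difference, read 39.3, 25.1 and 31.5 in Ler and 16.4, 328 and 4419 in flu at the 3 times in order, a difference of 5.78 at 2 h. It was low on all 3 Ler arrays and in flu at 30 min, and high in flu at 2 h. AT5G51440, a mitochondrial small heat shock protein, read 82.8 in Ler and 4711 in flu, a difference of 5.16. AT1G54050 and AT1G53540 differed by 4.64 and 4.17. The remaining members stayed within 2-fold, from AT2G19310 at 0.81 to AT4G21870 at -0.61.

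Of the 15 genes for Hsp70, Hsp90 and their helpers, 8 were at least 2-fold higher and 0 lower, with a median of 1.04. Of the 13 that reached 185 in Ler, 6 were higher and 0 lower, with a median of 0.69. Fes1A, which protects cytosolic Hsp70 in heat, read 449, 513 and 608 in Ler and 349.7, 2472 and 8806 in flu over the 3 times. Its difference at 2 h was 3.75, while Fes1B differed by 1.71 and Fes1C by 0.15. Among the Hop genes, which link Hsp70 to Hsp90, Hop3 read 21.6 in Ler and 1016 in flu, a difference of 3.90. Hop2 differed by 0.69 and Hop1 by -0.29, both within 2-fold. AT5G48570, an immunophilin that works with Hsp90, differed by 4.25, and the J-protein AT2G20560 by 3.36. The cytosolic Hsp70 genes Hsp70-2 and AT3G09440 read 1018 in Ler and 4635 in flu, and 6299 in Ler and 13049.6 in flu. AT3G09440 also stood higher in Ler at 2 h than at 30 min, where it read 2089.9, so its difference of 1.04 came on top of a higher wild-type level.

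Folding genes of the endoplasmic reticulum showed a narrower pattern. Of 12, 2 were at least 2-fold higher, and both encode transcription factors that switch on this compartment's stress response. BZIP60 read 1022, 1321 and 688 in Ler and 3466, 5256 and 6023 in flu at the 3 times and was past 3-fold at each, with 3.04 at 2 h. BZIP28 read 582 in Ler and 1352 in flu, a difference of 1.15. The third such factor, BZIP17, differed by -0.23. The folding and quality-control members themselves lay between -0.83 for the calreticulin CRT1b and 0.95 for DER1, and the list median was 0.04. Of 3 chaperonins 1 was at least 2-fold lower, Cpn60beta4 at -1.18, and Cpn60beta2 and Cpn60beta3 differed by -0.60 and 0.12.

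The 20 named genes with the highest differences, taken among genes whose higher signal at 2 h reached 591, lay 21.4- to 54.8-fold above Ler on the scale of signal + 50. In Ler 15 of them were under 185 at 2 h. AT1G05575 read 117, 98.0 and 32.6 in Ler and 2326, 4728 and 4403 in flu over time, and AT4G39670 103, 236 and 31.98 in Ler and 914, 3323 and 4051 in flu. Both were already high in flu at 30 min. AT2G22880 was under 6 on every Ler array and read 2098 in flu. AT2G41730 read 289.7, 546 and 219 in Ler and 209.5, 1069.8 and 7223 in flu and was less than 2-fold apart at 30 and 60 min. Its probe set is of a type that may also match other transcripts. In all, 10 of the 20 were at least 4-fold apart at 30 min and 17 at 60 min.

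Several of these genes were past their highest level at 2 h. AT4G29780 read 129, 167 and 104 in Ler and 5832, 8042 and 3462 in flu, and its flu signal at 2 h was under that at 60 min. XTH18, which remodels xyloglucan in the cell wall, read 3325 in flu at 60 min and 2149 at 2 h. AT2G32030 stood at 2484 and 1257. For such genes the Ler signal was also lower at 2 h than at 60 min, from 80.9 to 8.26 for AT2G32030, which keeps the 2 h difference large. AT4G01870 was the brightest of the 20, at 442 in Ler and 12088 in flu.

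**Figure D3:**
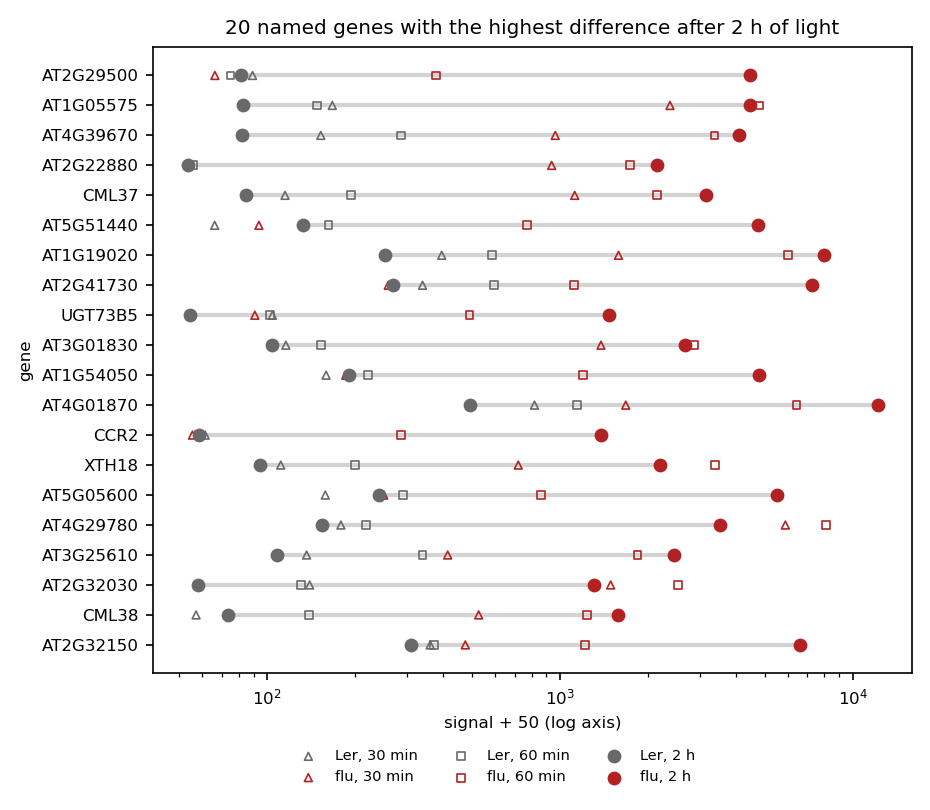
Signal + 50 on all 6 arrays, on a logarithmic axis, of the 20 named genes with the highest 2 h difference, ordered by that difference. Filled circles are the 2 h arrays joined by a bar (grey for Ler, red for flu), and open triangles and squares are 30 min and 60 min. In every row the filled red circle lies to the right of all 3 Ler marks.

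Genes of calcium sensing and early signalling included both large differences and none. Calmodulin-like proteins bind calcium and pass the signal on, and 4 of 7 in the list were at least 2-fold higher and 0 lower, with a median of 1.67. The 4 passed the filter on flu arrays only, and of the 3 that reached 185 in Ler 0 were past 2-fold. CML37 read 65.3, 143 and 35.1 in Ler and 1073, 2089 and 3107 in flu at the 3 times, and CML38 7.30, 89.4 and 23.5 in Ler and 478, 1186 and 1532 in flu. Both were high in flu from 30 min on. AT1G76640, a calmodulin-like gene beside CML38 on the chromosome, was at 29.5 in flu at 60 min and at 1009 at 2 h, with 9.04 in Ler. CML41 was bright in both genotypes, at 1417 in Ler and 1506 in flu, and differed by 0.09. Of 12 kinases tied to receptors, 5 were at least 2-fold higher and 1 lower. B120 read 48.2 in Ler and 806 in flu, a difference of 3.12. BIK1 and PTI1-4, cytoplasmic kinases of the immune response, differed by 2.24 and 2.14. THE1, a sensor of cell wall state, read 1019.8 in Ler and 372 in flu, a difference of -1.34, whereas FER, of the same receptor family, differed by -0.09.

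Transcription factors with named probe sets were few. STZ, a zinc finger repressor of stress responses, read 308, 283 and 267 in Ler and 6741, 8279.8 and 6607 in flu. It differed by 4.39 at 2 h. GIS, the other zinc finger factor of that list, went the other way, at 315 in Ler and 127 in flu, a difference of -1.05. Of 5 WRKY factors, which act in defence and senescence, WRKY6, WRKY53 and WRKY22 were at least 2-fold higher, WRKY6 and WRKY22 having passed the filter on flu arrays only. WRKY53 read 245, 209 and 123.1 in Ler and 2276, 2535 and 725 in flu, so that its flu signal at 2 h was below that at 30 and 60 min. WRKY6 differed by 2.23 and WRKY22 by 1.40. ORA47, an AP2-domain factor linked to jasmonate, read 96.2 in Ler and 473 in flu, a difference of 1.84. Among 5 basic helix-loop-helix factors 0 were at least 2-fold higher, and bHLH115, which acts in iron supply, read 1141 in Ler and 489.5 in flu, a difference of -1.14. EX1, a plastid protein needed for singlet oxygen signalling, had similar signals of 912 in Ler and 943 in flu.

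Protein turnover divided by enzyme class. Plant U-box ligases attach ubiquitin to their targets, and 5 of 7 were at least 2-fold higher and 0 lower, with a median of 2.02. Of the 4 that reached 185 in Ler, 3 were higher, PUB19, PUB24 and PUB43. PUB19 read 409.7, 328 and 98.5 in Ler and 329, 962 and 1516 in flu, highest in flu at 2 h. PUB22, PUB23 and PUB24, a trio that dampens immune signalling, differed by 1.39, 2.22 and 2.18. PUB43 differed by 2.02. Of 5 RING-type ligases 0 were at least 2-fold higher, and ATL5 read 219 in Ler and 20.0 in flu, a difference of -1.94. ATL5 passed the filter on Ler arrays only. Conjugating enzymes numbered 1 of 10 at least 2-fold higher, UBC16 at 1.05, and ubiquitin-specific proteases 0 of 11 in either direction. Autophagy genes, which enclose cell contents for breakdown, had 1 of 11 at least 2-fold higher, ATG8H, at 179.6 in Ler and 785 in flu, a difference of 1.86. Of the 11, 10 lay within 2-fold and 10 above 0, with a median of 0.31. Sorting proteins of the ESCRT complexes, which move membrane proteins toward the vacuole, had 3 of 11 at least 2-fold higher, VPS2.1, VPS60.1 and VPS20.1, at 1.49, 1.36 and 1.1.

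Several lists of hormone genes held higher members. Jasmonates are lipid-derived stress hormones. Of 8 genes listed under their synthesis, turnover and response, 6 were at least 2-fold higher and 0 lower, with a median of 2.16. Of the 3 that reached 185 in Ler, OPCL1, AT5G05600 and the jacalin lectin JAL23, 3 were higher. So were 3 of the 5 that passed on flu arrays only. OPCL1, a ligase of the synthesis pathway, read 442, 639 and 548 in Ler and 1598, 4087 and 6303 in flu. It was already apart at 30 min. AT5G05600, AT2G38240 and JRG21, oxygenases that inactivate jasmonate, differed by 4.52, 4.25 and 2.33. AT2G38240 read 158 in flu at 60 min, close to the 178 of Ler, and 3972 at 2 h. JMT, which forms methyl jasmonate, differed by 1.99. The jacalin lectins JAL23, JAL34 and JAL33 differed by 1.67, 0.93 and 0.15. They are counted in this list, and their tie to jasmonate was not checked.

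All 3 genes of the salicylate and defence list were at least 2-fold higher, and all 3 were under 185 on every Ler array and passed the filter on flu arrays only, which largely fixed that count. GRX480, a glutaredoxin that binds defence transcription factors, read 170.4, 159.8 and 169.7 in Ler and 397, 2887 and 4314 in flu. SAG101, a lipase-like immune protein, differed by 1.72, and the defensin-like peptide LCR66 by 2.14. Of 8 genes of abscisic acid and drought response, 3 were at least 2-fold higher, the dehydrin LTI30 at 2.39, COR27 at 1.57 and AT2G46140 at 1.13. Of brighter dehydrins, AT1G54410 read 9138 in Ler and 8457 in flu, and COR47 2044 in Ler and 3199 in flu, a difference of 0.63. Both stayed within 2-fold. Among auxin genes, GH3.3, which conjugates the hormone, and the repressor IAA18 differed by 1.65 and 1.2, and IAA29 by -0.28. The gibberellin receptor GID1B read 84.6 in Ler and 404 in flu, a difference of 1.75, whereas GID1A and GID1C differed by 0.22 and 0.20.

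Detoxification genes lay on both sides of the wild type. UDP-glycosyltransferases attach sugars to hormones and toxic compounds, and 9 of 22 were at least 2-fold higher and 1 lower. Of the 8 genes of the UGT73 and UGT76 groups 6 were higher, with a median of 1.8, but 6 of the 8 passed the filter on flu arrays only, 5 of them higher. Of the other 2, UGT76E11 was higher and UGT76C2 was not. Of the 13 in other groups, 12 of which reached 185 in Ler, 2 were higher and 1 lower, with a median of -0.02. IAGLU, whose symbol names no UGT group and which was therefore counted in neither set, reached 185 in Ler and was higher by 1.76. The counts of the other groups thus leave out this higher gene. This division was made after the values had been seen. UGT73B5 read 54.4, 52.2 and 4.80 in Ler and 40.9, 442 and 1423 in flu, and UGT76E12 2.54, 14.5 and 5.25 in Ler and 1.40, 20.5 and 1065 in flu. UGT76E12 was under 21 on every array but that of flu at 2 h. UGT88A1 was the lower member, at 1601 in Ler and 651 in flu, a difference of -1.24, and UGT78D2, a flavonoid enzyme, differed by 0.01.

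Tau class glutathione transferases, which join glutathione to reactive molecules, went both ways. GSTU25 and GSTU22 read 45.7 in Ler and 545 in flu, and 8.43 in Ler and 276 in flu, with differences of 2.64 and 2.48. Both were within 2-fold at 60 min, and both passed the filter on flu arrays only. GSTU27 read 2412 in Ler and 645 in flu, a difference of -1.83, while the bright GSTU20 and GSTU18 stayed within 2-fold at -0.21 and -0.31. MSRB9, which repairs oxidised methionine, read 309.8, 327 and 247 in Ler and 386, 537 and 3373 in flu. Its difference of 3.53 stood alone among 5 such reductases, whose other members lay between -0.36 and 0.08. Of 8 aldehyde dehydrogenases 1 was at least 2-fold higher, ALDH7B4, at 1.34, and of 9 cytochrome P450 genes 2 were, CYP71B22 at 2.1 and CYP71B23 at 1.24. CCR2, a cinnamoyl-CoA reductase of lignin synthesis, read 11.5, 8.57 and 8.49 in Ler and 5.70, 237 and 1332 in flu. Of 8 genes on the list of phenylpropanoid synthesis 2 were at least 2-fold higher, CCR2 and 4CL8, and the flavonoid genes CHIL and DFR differed by -0.92 and -0.66. The member CHI of that list is the locus AT2G43570, and its part in this pathway was not checked. The glucosinolate transporters GTR1 and GTR2 were higher, at 1.63 and 1.13, while of the glucosinolate enzymes AOP1 was lower, at 673 in Ler and 150.3 in flu, a difference of -1.85, and BCAT4 and AOP3 stayed at 0.27 and -0.11.

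In the mitochondrial groups the larger differences were in genes of stress and by-pass respiration. NDB2, an alternative NAD(P)H dehydrogenase that does not pump protons, read 557, 861 and 862 in Ler and 488, 1841 and 6819.6 in flu, a difference of 2.91 at 2 h. AT2G21640, known as a marker of mitochondrial oxidative stress, read 259 in Ler and 3899.6 in flu, a difference of 3.67. With the mitochondrial small heat shock protein AT5G51440, 3 of the 6 genes of this list were at least 2-fold higher, 2 of them among the 5 that reached 185 in Ler. The related dehydrogenases NDB1 and NDC1 were at -0.61 and -0.62. The citrate cycle and respiratory list had 0 of 20 past 2-fold in either direction, with a median of -0.16, and CYTC-2 was its highest member at 0.84. The 10 mitochondrion-encoded genes had 0 past 2-fold and ranged from -0.67 for nad4 to 0.48 for cox1.

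The list of peroxide and superoxide scavenging held, beside peroxidases, genes of ascorbate and glutathione recycling and of ascorbate synthesis. It held no superoxide dismutase or catalase, so it does not stand for the removal of peroxide and superoxide as a whole. Its members were mostly within 2-fold. Of 9, 1 was at least 2-fold higher and 1 lower, and the list median was -0.54. ATMDAR2, which regenerates ascorbate, read 678, 719.6 and 667 in Ler and 683, 1317 and 3918 in flu, a difference of 2.47. VTC4, of ascorbate synthesis, read 2009.8 in Ler and 798 in flu, a difference of -1.28. The plastid ascorbate peroxidases TAPX and SAPX were at -0.89 and -0.52, and the plastid glutathione reductase GR at -0.54, beside 0.07 for GR1 outside the plastid. Thioredoxins and glutaredoxins had 1 of 11 at least 2-fold higher, GRX480, and the plastid thioredoxin reductase NTRC was at -0.96.

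Nuclear genes of the photosynthetic machinery were lower as groups, by modest amounts. Of 21 genes on a list of thylakoid complexes' assembly and the NDH complex, 5 were at least 2-fold lower and 0 higher. Of the 21, 20 lay below the median of all genes, and the list median was -0.74. That list also held plastid genes of other roles, CaS, NTRC, TROL, CYTC6A and PGRL1B. CCB3, needed to mature cytochrome b6, read 437, 407 and 706 in Ler and 282, 274 and 202 in flu. The Ler signal at 2 h was the highest of the 3, so part of its difference of -1.59 rests on that array. CRR42 and CRR21, of the NDH pathway, read 958, 922 and 899.9 in Ler and 526, 514 and 314 in flu, and 473, 468 and 473 in Ler and 262, 259 and 186 in flu. Both were lower in flu at all 3 times. NdhN and CaS differed by -1.05 and -1.04, and PGRL1B by 0.11.

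The antenna list held only LHCB4.1, LHCB4.2, LHCB4.3 and the antenna-like LIL3:1 and LIL3:2, so it does not stand for the light-harvesting apparatus as a whole. Of these 5 genes for chlorophyll-binding proteins, 2 were at least 2-fold lower and all 5 lay below 0, with a median of -0.87. LHCB4.3 read 2327, 2593 and 3424 in Ler and 1703, 926 and 1015 in flu. LHCB4.2 read 10866 in Ler and 4036 in flu, a difference of -1.42, and the brighter LHCB4.1 20507 in Ler and 13698 in flu, a difference of -0.58. The 6 nuclear photosystem and ATP synthase genes had 0 past 2-fold and lay between -0.82 for PSBY and -0.39 for PSAE-1. In the Calvin cycle and photorespiration 1 of 5 was at least 2-fold lower, the phosphoglycerate kinase AT1G56190, at -1.11. RCA, the activase of Rubisco, was at -0.32. Histones and tubulins, which have no part in photosynthesis, had medians of -0.63 and -0.50 with 0 of 5 and 0 of 7 past 2-fold.

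Tetrapyrrole synthesis, the pathway that FLU controls, had 1 of 9 listed genes at least 2-fold higher and 0 lower, with a median of -0.77. HEMA2, an isoform of glutamyl-tRNA reductase, read 135, 163 and 62.3 in Ler and 272, 572 and 588 in flu, a difference of 2.51. GSA1 and HEMB1, of the next steps, were at -0.51 and 0.15. Genes of the later steps lay lower, with HEME2 and HEME1 at -0.77 and -0.88. In the chlorophyll branch, CHLI2, a subunit of magnesium chelatase, was at -0.99, just short of 2-fold, and CHLM at -0.87. PORB, which reduces protochlorophyllide in the light, read 9208 in Ler and 5138 in flu. NOL, also counted in the list though it acts on chlorophyll b and not in synthesis, was at -0.11. The isoform HEMA2 was the one member that stood apart upward.

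Genes encoded in the plastid genome were within 2-fold of the wild type at 2 h. Of 43 photosynthesis genes 0 were past 2-fold, with a median of -0.10, and of 26 for gene expression and other functions 0, with a median of -0.32. They ranged from -0.78 for rpl14 to 0.79 for psbA. psbA, the D1 protein of photosystem II, read 4343, 4424 and 2903 in Ler and 771, 5098 and 5062 in flu over the 3 times, so that flu was below Ler at 30 min, a difference of -2.42, and above it at 60 min and 2 h. rbcL, the large subunit of Rubisco, read 989 in Ler and 982 in flu at 2 h. Plastid transcripts mostly lack long poly(A) tails, and how well a labelling protocol for eukaryotic messages captured them was not tested.

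The 20 named genes with the lowest differences lay 3.81- to 12.4-fold below Ler, a narrower range than the highest 20. AT1G60590, of the pectin-degrading polygalacturonase family, read 1466, 2099 and 1711 in Ler and 463, 227 and 92.5 in flu. Its flu signal was lower than that of Ler at all 3 times, and its difference of -3.63 was the lowest of all. AT5G44680 read 1283, 1647 and 2167 in Ler and 1363, 666 and 263 in flu, level at 30 min and apart from 60 min on. EXPA8, an expansin that loosens cell walls, read 1954, 1717 and 1842 in Ler and 2059.8, 848 and 293 in flu. AT1G29660, of the GDSL lipase family, read 5476 in Ler and 1006 in flu, a difference of -2.39. AT3G06770 and AT1G67750, of pectin-degrading families, were at -2.02 and -1.98. ACT11, an actin, read 805, 729 and 1271 in Ler and 577, 599 and 248 in flu.

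For AT1G13650 and AT5G03350 the wild type at 2 h stood above the other 5 arrays. AT1G13650 read 246, 312 and 2153 in Ler and 175, 90.2 and 225 in flu, so that flu at 2 h was near the earlier Ler arrays. AT5G03350 read 664, 692 and 2784 in Ler and 347, 351 and 656 in flu. AT5G44530 and AT5G48490 were also brightest in Ler at 2 h, but their flu signal at 2 h lay below every Ler array. AT5G44530 read 632, 403 and 1091 in Ler and 406, 321 and 231 in flu, and AT5G48490 5764, 3084 and 8091 in Ler and 4463, 2347 and 1108 in flu. At 60 min 1 of the 20 was at least 4-fold lower and 12 were less than 2-fold apart.

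**Figure D4:**
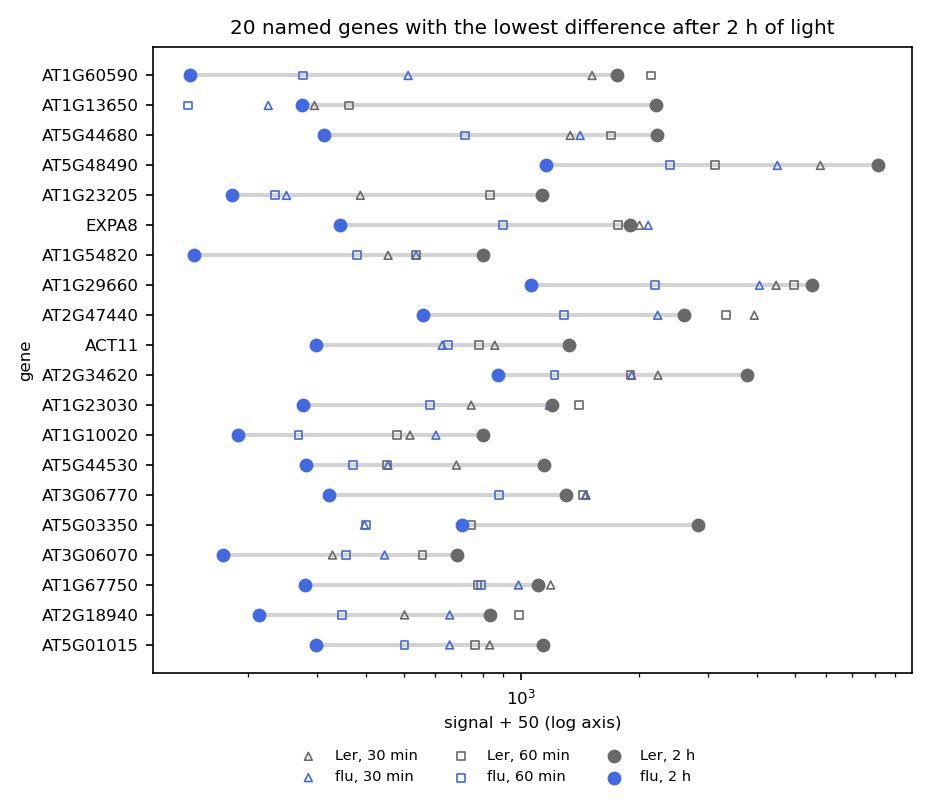
Signal + 50 on all 6 arrays, on a logarithmic axis, of the 20 named genes with the lowest 2 h difference, ordered by that difference. Filled circles are the 2 h arrays joined by a bar (grey for Ler, blue for flu), and open triangles and squares are 30 min and 60 min. In AT1G13650 and AT5G03350 the grey filled circle stands away from the other marks of its row.

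Cell wall genes were lower more often than higher, with exceptions. Of 8 expansins 2 were at least 2-fold lower, EXPA8 and EXPB1 at -2.46 and -2.0, and 1 higher, EXPA16 at 1.12. EXPB1 passed the filter on Ler arrays only. EXPA16 read 550.0, 468 and 195 in Ler and 694, 545 and 482 in flu, so its difference rests on a low Ler signal at 2 h. Of 6 xyloglucan enzymes 2 were lower, XTH32 at -1.31 and XTH16 at -1.07, and XTH18 was higher by 4.54. XTH19, a close relative and neighbour of XTH18, was at 0.13. Of 21 genes of cellulose synthases and wall acetylation 5 were at least 2-fold lower and 2 higher. TBL36, TBL45, TBL25 and TBL28 were lower, by differences of -1.39 to -1.07, as was CSLA03 at -1.29. TBL37 and CSLD2 were higher, at 1.79 and 1.25. The pectin methylesterase ATPMEPCRB read 153, 269.8 and 334 in Ler and 1241, 1922 and 775 in flu and was highest in flu at 60 min.

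Lower members were also found in further families. Serine carboxypeptidase-like genes had 2 of 13 at least 2-fold lower, scpl50 and SCPL34, and a median of -0.71. IQD genes, whose proteins bind calmodulin at microtubules, had 3 of 9, with IQD24 at 952 in Ler and 271 in flu, a difference of -1.64. In the stomatal lineage SPCH and STOMAGEN were at -1.05 and -1.01 and FMA at -0.45. SPCH was dim, at 193 in Ler and 67.4 in flu, and passed the filter on Ler arrays only. Tetraspanins, membrane organisers, went both ways, with TET8 at 2182 in Ler and 7867 in flu, a difference of 1.83, TET9 at 1.64 and TET10 at -1.14. Of 9 genes often used as references 0 were at least 2-fold higher and ACT11 alone was lower. Without regard to ACT11 they ranged from -0.44 to 0.19.

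**Figure D5:**
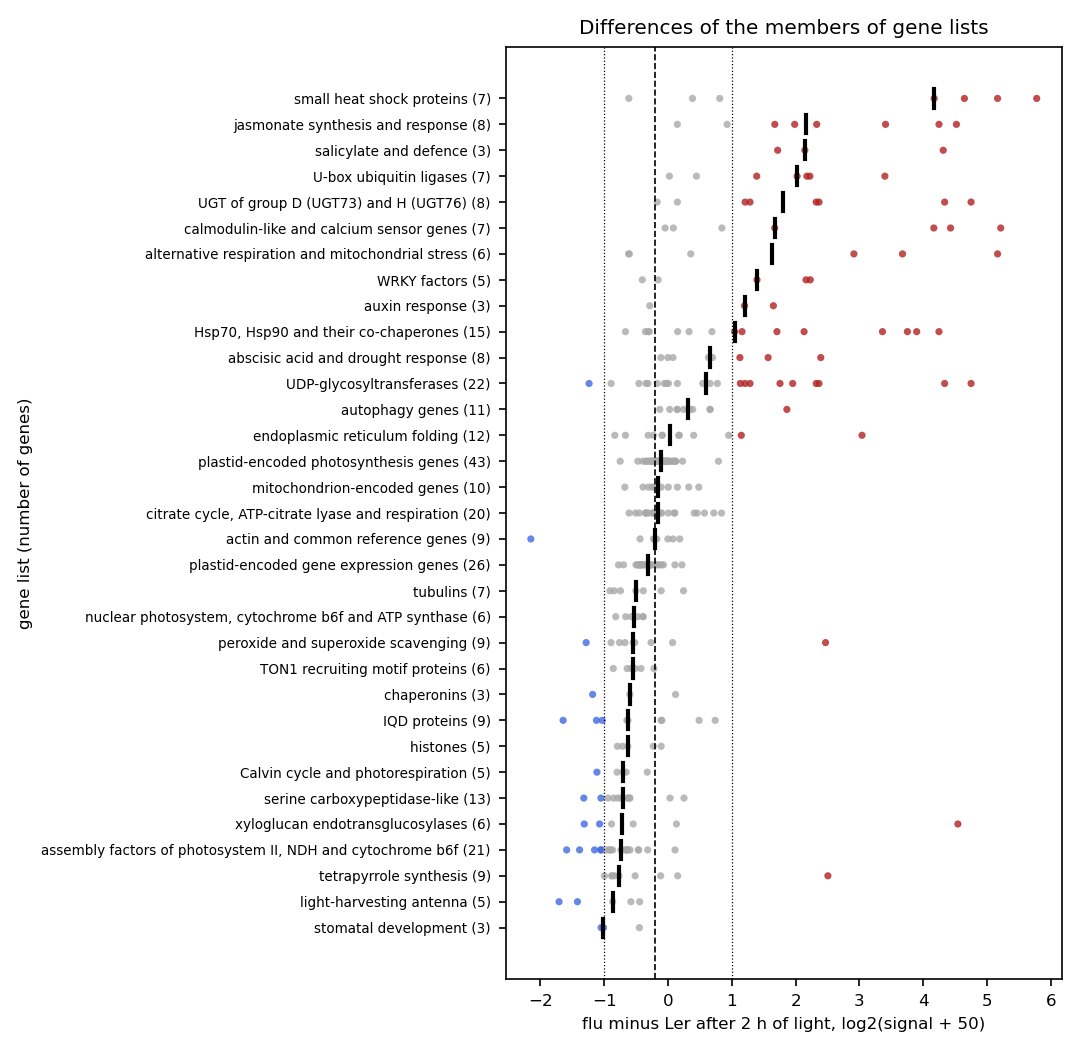
Difference between flu and Ler after 2 h of light on log2(signal + 50) for each gene of selected lists, ordered by the list median, with the number of genes in brackets. Points are genes (red at least 2-fold higher, blue at least 2-fold lower, grey between), black bars are list medians, the dashed line is the median of all genes at -0.20 and dotted lines mark 2-fold. The small heat shock proteins, at 4.17, have the highest median, followed by jasmonate, salicylate and U-box genes, all above 2, and lists dim in Ler owe part of this to the filter.

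Further lists, with at most 2 genes past 2-fold in either direction, covered other parts of the cell. In a short list 2 genes are a larger share than the 9.15% higher and 5.71% lower of all genes. Secretion and exocyst genes had 1 of 17 higher, PRA1.B4 at 1.8, and 1 lower, PRA1.F1 at -1.23. Family 1 glycosyl hydrolases had 2 of 12 higher, ATA27 at 2.27 and BGLU46 at 1.32, both dim in Ler. Subtilases, which are secreted proteases, had 2 of 7 higher, SBT3.5 at 393 in Ler and 2163 in flu, a difference of 2.32, and SBT3.3 at 1.15. In starch and sugar metabolism 2 of 6 were lower, ATSPS4F at -1.25 and SBE2.2 at -1.01. Sugar transporters of the SWEET family, RALF-like peptides, LSM proteins, nuclear RNA polymerase subunits, TON1 recruiting motif proteins and sulfur assimilation genes had 0 members past 2-fold.

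The same family often held genes on both sides, so a family name alone did not tell the direction. Within the glutathione transferases GSTU25 and GSTU27 differed by 2.64 and -1.83, and within the tetraspanins TET8 and TET10 by 1.83 and -1.14. Adjacent genes were at times alike. Of 132 genes at least 4-fold higher that had a tested neighbour on the chromosome, 22 (16.7%) had a neighbour that was also at least 4-fold higher, beside 162 of all 3321 genes with a tested neighbour (4.88%). They formed 11 pairs, among them UGT73B5 with UGT73B4 and CML38 with AT1G76640, and no longer run. These pairs include related genes, whose probes may share signal, and they were looked for after the top genes had been seen.

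Differences near the 2-fold limit show how fine it was. BIGYIN stood just inside at 1.01 and AT3G55470 just outside at 0.997, and FTSZ2-2, of plastid division, just inside on the lower side at -1.01. At the filter, AT2G14650 was the dimmest named gene kept, with a highest signal of 185.1, and ETP2 the brightest left out, with 184.98. Of 58 genes with more than 1 probe set, 5 had probe sets on different sides of 2-fold, and only in DME were these at least 2-fold from each other, from -0.11 to 1.16.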

How the data were processed

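The deposited table holds MAS5 signals, that is the intensity of each probe set on a linear scale, per the submitters' processing notes, and the software version is not given in the sources used here. The authors' scaling shows in the trimmed mean (2% off each end), which was 500.0 on each array. The deposited intensity values were used as they are. The labels name 20 µg of total RNA and biotin-labelled target, and all columns of the table were used. Of 22810 probe sets, 64 are controls and 9684 others stayed under the filter, the median of all values rounded to 185.

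Groups were taken from the array titles, and with 1 array a group no test was made. A fold of 2 or 4 on signal + 50 is a description of 2 arrays. Of the probe sets that passed, 6927 have 1 gene in the platform annotation, 263 have several and 5872 have none and are unnamed here. Names were updated through a RefSeq table of TAIR10.1 (Columbia), in which 13436 of 13513 single-gene probe sets of the whole array matched. The plants were Landsberg erecta. No genome build is named in the files, so no coordinates are given, and the table served for names and neighbour order only.

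The members, the gene lists and the rules were chosen with earlier results of these data known. Of 94 lists, 62 had at least 3 genes, 18 had 1 or 2 and 14 had none. The lists were not kept as first written. After differences had been seen, 27 lists were added, locus numbers were added to 9 and several patterns were narrowed. The search for neighbouring genes and the groups by level were also chosen then. Named genes were the 20 highest and 20 lowest differences among genes whose higher 2 h signal reached the 75th percentile of all values (591), and in each list up to 6 genes with the largest differences and the brightest gene within 1.2-fold. Where a family is described as a whole, further members are given so that each is accounted for. A planned search of promoters for motifs was not run, since no sequences were used here.

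Alternatives were an offset of 16 or 100, quantile normalization, centring on the median difference, no filter, a filter at the 75th percentile, a filter on the 2 h arrays and, added after the data had been seen, rescaling to 1 trimmed mean. Counting was tested on simulated signals. Python 3.11.15, pandas 2.3.3, numpy 2.4.6 and matplotlib 3.10.9 were used.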

Additional observations from a re-analysis of the deposited data

Results flagged for a closer look

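For 22 of the 2041 probe sets past 2-fold at 2 h the difference was past 2-fold in the opposite direction at 30 or 60 min. These changes of direction between single arrays were not tested. 7 of the 22 have a single named gene. AT5G61590 differed by 1.22 at 30 min and by -1.72 at 2 h, where it read 860.3 in Ler and 227 in flu. UGT76E11 differed by -1.03 at 60 min and by 1.21 at 2 h, at 365 in Ler and 909 in flu. AT3G29970 went from 1.30 at 60 min to -1.34 at 2 h. AT1G66850 went from -1.20 at 30 min to 3.65 at 2 h, where flu read 1223 and Ler 51.2. AT3G16330 went from -1.24 at 60 min to 2.67. AT1G24095 went from -1.11 at 30 min to 3.16, and AT5G05220 from -1.23 to 1.28. Apart from AT5G61590 and UGT76E11, the signals behind the earlier, opposite differences of these genes were under 210.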

How the results depend on the processing

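No paired analysis was possible because each genotype had 1 array at 2 h, and for the same reason no array could be left out. The 1321 probe sets at least 2-fold higher and the 585 at least 4-fold higher stayed within 1.5 times of these counts under every alternative run. The 720 at least 2-fold lower became 397 after centring on the median difference and 465 with a filter at the 75th percentile, where fewer probe sets entered. The 43 at least 4-fold lower became 67 at an offset of 16, 23 at 100 and 21 after centring. Of 575 named genes and list members, 39 moved by more than 0.34 (the SD between the Ler arrays of 60 min and 2 h) with an offset of 16, 39 at an offset of 100 and 2 after quantile normalization. Of the 153 past 2-fold 0 changed sign under any alternative run, 137 stayed past it after centring and 139 with an offset of 100. Of 62 list medians, 16 moved with the filter at the 75th percentile and 10, all between -0.20 and 0, turned positive after centring. Medians of the other sign numbered 9 with the filter at the 75th percentile, for lists with values of -0.37 to 0.20, 3 with the filter on the 2 h arrays and 2 after quantile normalization. Rescaling to 1 trimmed mean, chosen after the data had been seen, left 719 probe sets at least 2-fold lower. Differences of genes under 185 in 1 genotype depend most on the offset, as for AT2G29500, at 6.54 for an offset of 16 and 5.10 for 100. Signals near background and the single array a group limit every value.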
